A study of Mus musculus with 33 samples.

Results

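The anterior pituitary hormone genes comprise 8 genes, chosen by name and not by their values: *Prl* (prolactin), *Gh* (growth hormone), *Cga* (the α subunit that luteinizing, follicle-stimulating and thyroid-stimulating hormone share), *Lhb*, *Fshb* and *Tshb* (the β subunits of those hormones), and *Pitx1* and *Pou1f1*, which encode transcription factors and not hormones. They filled 9 of the 41565 named entries of the deposited table, because *Lhb* was listed under 2 entries. The tissue was not pituitary but hypothalamus, with 16 libraries of the posterior hypothalamus (PH) and 17 of the preoptic area (POA). All mice were adult WT C57BL/6 females. Intact mice were collected in diestrus (4 PH and 5 POA libraries), and the others were ovariectomized (OVX) at 3–4 months of age and collected 14 days (6 and 6) or 4 months later (6 and 6). The 4-month mice were therefore older than the intact mice at collection, so age and time after OVX cannot be told apart in that comparison. Control titles read sham, but a further label and the study's methods call these mice intact, the name used here. The labels do not say which PH and POA libraries came from the same mouse, and every group is spread over 2 batches with 2 or 3 libraries in each.

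Lactotropes of the anterior pituitary make prolactin, somatotropes make growth hormone, gonadotropes make the gonadotropin subunits, and thyrotropes make *Cga* and *Tshb*. POU1F1 (Pit-1) is the lineage factor of lactotropes, somatotropes and thyrotropes, and PITX1 acts early in pituitary development and in most of its hormone cells. The pars tuberalis, a thin sheet of pituitary cells around the median eminence at the base of the hypothalamus, also makes *Tshb* and *Cga* and carries melatonin receptors. Ovarian estrogen restrains gonadotropin subunit genes and promotes *Prl* in the pituitary itself.

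The deposited values are a normalized signal on a linear scale and not counts. A gene with no detectable expression sits at a floor of 22.1 (4.46 on the log2 scale) rather than at 0, and a gene is called present in a library here when its signal reached 44.1, or 2 times that floor. The sum of a library's values is not a read total, so the sequencing depth and the counting error of single values are unknown. In the PH, the surrogate variable fitted below mostly set apart 1 library, replicate 5 at 14 days (0.785, against -0.311 to 0.194 in the others), in which *Prl* was 85.2. The members called without it were again 0. Neuron, astrocyte, oligodendrocyte and microglia markers (3 genes each) were present in every library. The regional marker lists did not separate the regions, with the mammillary and posterior hypothalamic list (3 genes) summing to 923 to 1937 in the PH and 874 to 1768 in the POA, and 75.8% of the variation of a component shared by floor genes lay between the regions. Levels are therefore compared within a region. The signal is also not divided by gene length, so levels of different genes are not ranked.

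Promoter sequences are shown for 3 members, because *Prl* ranged widely between libraries in step with *Gh*, POU1F1 is the factor known to bind the promoters of both, and *Cga* was highest in the same POA libraries. The sequences are the 250 bases before the transcription start in RefSeq (GRCm38.p6), 5′ to 3′ on the strand of the gene, with the POU1F1 core TATNCAT, or its reverse complement ATGNATA, in capitals. *Prl* lies at chr13:27057320-27057569 (plus strand), *Pou1f1* at chr16:65520262-65520511 (plus strand) and *Cga* at chr4:34893529-34893778 (plus strand).
Prl: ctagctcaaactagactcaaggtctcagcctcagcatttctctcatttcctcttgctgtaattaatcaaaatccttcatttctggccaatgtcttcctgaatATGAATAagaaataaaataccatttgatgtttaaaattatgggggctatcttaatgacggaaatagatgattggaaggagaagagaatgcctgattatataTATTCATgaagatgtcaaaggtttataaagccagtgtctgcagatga
Pou1f1: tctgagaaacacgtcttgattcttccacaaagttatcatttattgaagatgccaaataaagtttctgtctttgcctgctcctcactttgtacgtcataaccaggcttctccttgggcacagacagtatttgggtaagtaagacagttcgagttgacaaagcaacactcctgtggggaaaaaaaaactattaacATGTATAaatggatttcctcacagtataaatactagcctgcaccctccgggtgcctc
Cga: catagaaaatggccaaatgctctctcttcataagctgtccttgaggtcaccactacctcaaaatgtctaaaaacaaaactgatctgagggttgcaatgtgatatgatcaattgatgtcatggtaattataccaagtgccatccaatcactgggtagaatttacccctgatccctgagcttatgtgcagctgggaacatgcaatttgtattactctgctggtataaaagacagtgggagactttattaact
The core was found 2 times before *Prl*, as ATGAATA 148 bases and TATTCAT 47 bases before the start, counted to the first base of the match. The upstream start of *Pou1f1* carried it as ATGTATA at 57 bases. Of 32851 promoter windows of the same length, 7.92% held this core. A second core, TAATCC or GGATTA, which PITX factors are known to bind, stood in 6.25% of windows and in none of the 7 windows of the 6 matched members (*Prl*, *Cga*, *Fshb*, *Lhb*, *Tshb* and *Pou1f1*, which has 2 starts). The POU1F1 core was likewise not in the windows of *Cga*, *Fshb*, *Lhb* or *Tshb*. A match describes these letters only.

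*Prl* spread widely between libraries of the intact and 14-day groups, by up to 7.13 log2 units in the PH of intact mice. In the PH of intact mice its signal was 21.1, 155, 20.9 and 2919 (replicates 1 to 4), and at 14 days after OVX it was 356, 151, 488, 189, 85.2 and 61.0 (replicates 1 to 6). At 4 months it was 20.9, 33.5, 39.1, 20.6, 39.6 and 28.7. All 6 libraries at 14 days were thus present and above all 6 at 4 months, none of which was present (3 of the 6 reached 1.5 times the floor), whereas the intact group spanned both, from the floor to 132 times the floor. In the POA the intact signal was 23.4, 1214, 22.9, 64.4 and 40.8, the 14-day signal 1777, 359, 30.3, 2920, 857 and 87.7, and the 4-month signal 23.3, 22.4, 24.0, 22.3, 36.5 and 22.3. Here the 14-day and 4-month groups overlapped through 1 library, replicate 3 at 14 days, and again no 4-month library was present.

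*Gh* followed the same libraries. In the PH it was 22.2, 59.4, 22.3 and 832 in intact mice, 308, 130, 220, 229, 38.3 and 83.5 at 14 days, and 22.3, 30.2, 27.0, 22.3, 51.2 and 22.3 at 4 months. In the POA it was 21.9, 290, 21.9, 37.2 and 26.5 in intact mice, 1513, 317, 21.8, 3634, 798 and 77.1 at 14 days, and 21.9, 22.0, 21.8, 42.6, 39.6 and 22.0 at 4 months. Its highest library was replicate 4 of the POA at 14 days, at 165 times the floor, and the highest in the PH was intact replicate 4, at 37.7 times the floor. *Gh* was present in 8 of 16 PH libraries and 6 of 17 POA libraries, and *Prl* in 8 and 7.

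**Figure D1:**
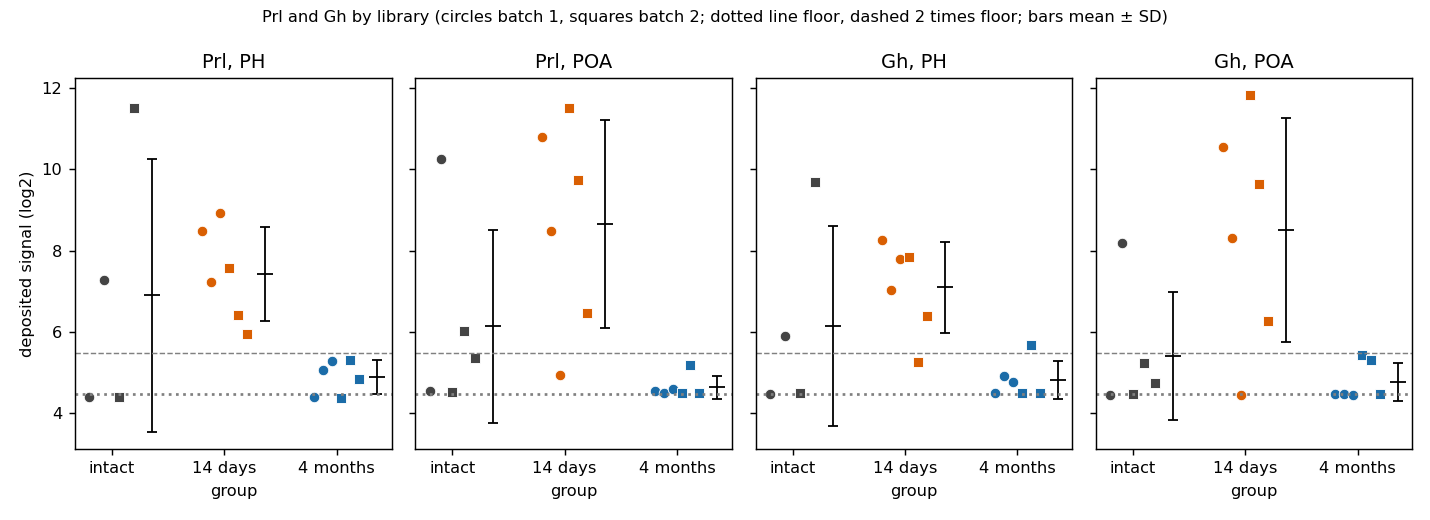
Deposited signal (log2) of *Prl* and *Gh* in each library by group (intact, 14 days and 4 months after OVX), with circles for batch 1, squares for batch 2, a black bar for the mean ± SD of the group, a dotted line at the floor and a dashed line at 2 times the floor. Both genes spread over several log2 units in the intact and 14-day groups, and all 4-month libraries lie near the floor, the highest being *Gh* at 51.2 in the PH.

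Ordered by the group mean of the log2 values, *Prl* and *Gh* were highest at 14 days, intermediate in intact mice and lowest at 4 months in both regions. The order depends on the scale, since by the mean of the linear signal the PH of intact mice was above that at 14 days (779 against 222 for *Prl* and 234 against 168 for *Gh*). For *Prl* in the PH the log2 means were 7.42 ± 1.16 (SD, n = 6), 6.89 ± 3.37 (n = 4) and 4.88 ± 0.42 (n = 6), and in the POA 8.65 ± 2.56 (n = 6), 6.13 ± 2.38 (n = 5) and 4.63 ± 0.28 (n = 6). For *Gh* the PH means were 7.09 ± 1.12, 6.14 ± 2.47 and 4.80 ± 0.47, and the POA means 8.51 ± 2.76, 5.41 ± 1.58 and 4.76 ± 0.47, with the same n. The means at 14 days and in intact mice lay within the spread of the intact group in the PH. The PH difference of *Prl* between 14 days and intact was 0.53 log2 units, ran from -0.30 to 2.07 when single libraries were left out, was highest without intact replicate 4, and was negative without intact replicate 1 or 3. For *Gh* in the POA, the difference of 4 months from intact was -0.65 and became 0.04 without intact replicate 2. Because most 4-month libraries lie at the floor, differences against that group are compressed compared with what counts would show.

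No member passed the test in any comparison between groups. Of the 9 entries, 5 passed the filter on low values in each region (*Prl*, *Gh*, *Cga*, *Tshb* and *Lhb* entry 2), and *Fshb*, *Pitx1*, *Pou1f1* and *Lhb* entry 1 did not. limma on the log2 values of the 3 groups of a region with the first surrogate variable (SV1), with *P* values adjusted over all genes tested, called 0 of 5 at 14 days versus intact in the PH, where it called 0% of 21998 genes. It called 0 of 5 at 4 months versus intact (0.0318% of genes) and 0 of 5 at 4 months versus 14 days (0.00909%). In the POA it called 0 of 5 at 14 days versus intact (0.00468% of 21365 genes), at 4 months versus intact (0.0936%) and at 4 months versus 14 days (0.0281%). At an unadjusted *P* under 0.05, the PH members were 0, 0 and 2 and the POA members 3, 0 and 3, in the same order. Over all genes tested, 668, 1335 and 900 of 21998 were under 0.05 in the PH. In the POA 1311, 1816 and 1092 of 21365 were. Without the filter, all 9 entries were tested among 41565 and 0 were called in each of the 6 comparisons (backgrounds of 0.00241%, 0.0144% and 0% for the PH and 0.00241%, 0.0192% and 0.012% for the POA). With so few genes called in the table at all, a missing call does not show that the members did not differ.

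The estimates were large but imprecise. At 4 months versus 14 days in the PH, limma gave -2.83 ± 1.11 (SE) for *Prl* (unadjusted *P* = 0.0249, adjusted *P* = 1) and -2.74 ± 0.80 for *Gh* (unadjusted *P* = 0.00476, adjusted *P* = 1). The groups did not overlap for 1 of the 5 tested members, *Prl*, and 0.236% of the genes tested did not overlap in this comparison (0.109% lower at 4 months). In the other 5 comparisons the groups overlapped for every member. The share of genes without overlap was 0.573% and 0.95% for 14 days and 4 months versus intact in the PH, and 0.412%, 0.665% and 0.112% for the 3 comparisons of the POA. In the POA the same comparison gave -4.02 ± 1.19 for *Prl* and -3.74 ± 1.10 for *Gh* with limma (unadjusted *P* = 0.0047 and 0.00473, adjusted *P* = 0.739 for both). At 14 days versus intact in the POA, limma gave 3.17 ± 1.17 for *Gh* (unadjusted *P* = 0.0175, adjusted *P* = 0.799) and 2.53 ± 1.25 for *Prl* (unadjusted *P* = 0.0647, adjusted *P* = 0.816). These estimates stand on 14-day values that themselves spread over 6.59 log2 units for *Prl* and 7.38 for *Gh* in the POA.

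*Prl* and *Gh* rose and fell together from library to library. Across the 16 PH libraries Pearson's r of the log2 values was 0.953 and Spearman's rho 0.938, and across the 17 POA libraries r was 0.972 and rho 0.725. By permutation with 100000 resamples (two-sided), *P* for r was 1e-05 in both regions, the smallest these resamples can give, and 2e-05 after adjustment over the 4 correlations computed. For rho the adjusted permutation *P* was 4e-05 in the PH and 0.00256 in the POA. Without the 2 libraries farthest from the median of *Prl*, r was 0.922 and 0.954. Within batches the PH value was 0.959 and 0.952 and the POA value 0.974 and 0.981, and after centring on the group means 0.94 and 0.966. It thus remained within each batch and after the group means were taken out, while r was not computed for single groups. Many libraries of both regions lie at the floor for both genes, so r describes mainly the contrast of these with the libraries above it.

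**Figure D2:**
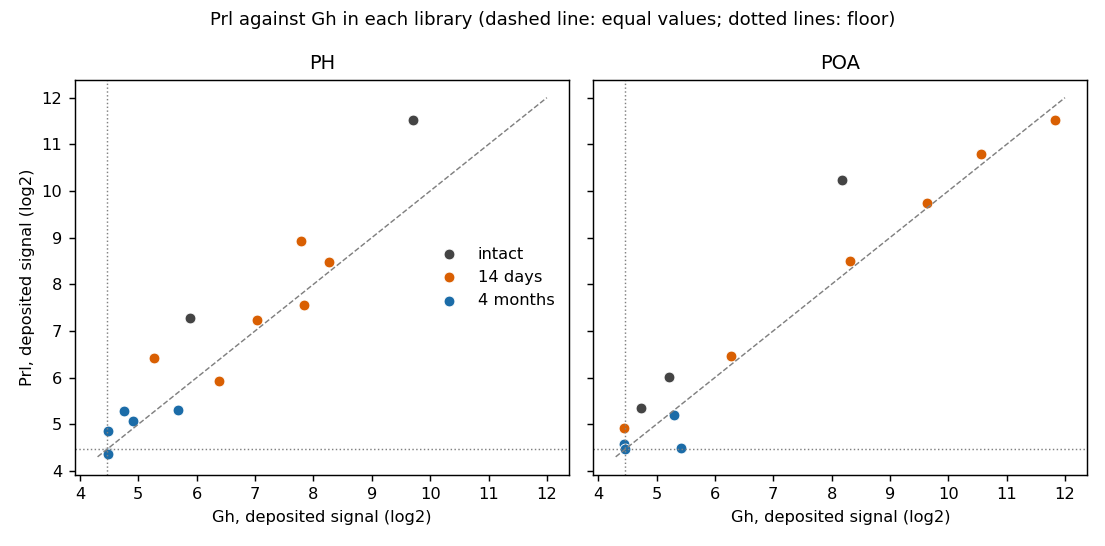
Deposited signal (log2) of *Prl* (vertical axis) against *Gh* (horizontal axis) in each PH library (left) and POA library (right), colored by group, with dotted lines at the floor and a dashed line of equal values. The libraries follow a line in each region (r = 0.953 and 0.972), and the 3 intact libraries with both genes present lie 1.38 to 2.06 log2 units above the line of equal values, against -0.45 to 1.15 for the 10 such libraries at 14 days.

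The proportion of *Prl* to *Gh* was higher in intact than in 14-day libraries where both were present, a description chosen after the values were seen and given without a test. In the libraries where both genes were present, the signal of *Prl* above the floor divided by that of *Gh* was 3.56 and 3.58 in the PH of intact mice (replicates 2 and 4) and 4.44 in the POA (replicate 2). In the 10 libraries at 14 days it was 0.633 to 2.36, with a median of 1.15, and no 4-month library had both genes present. The groups did not overlap at this threshold. With both genes required to reach 1.5 times the floor they did, at 2.79 to 4.44 in 4 intact and 0.633 to 3.89 in 11 libraries at 14 days, while 2 libraries at 4 months had 0.603 and 0.822. At 4 times the floor, 2 intact libraries had 3.58 and 4.44 and 8 libraries at 14 days had 0.802 to 2.36. The value of such a ratio depends on the lengths of the transcripts, so only its change between libraries can be read.

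**Figure D3:**
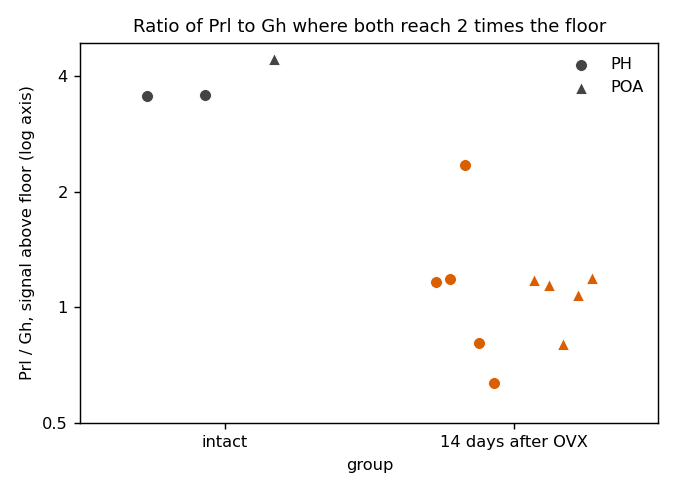
Ratio of *Prl* to *Gh*, each as signal above the floor (log axis), in the 13 libraries where both reached 2 times the floor, with circles for the PH and triangles for the POA. The 3 intact libraries lie between 3.56 and 4.44 and the 10 libraries at 14 days between 0.633 and 2.36, and no 4-month library qualified.

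*Cga*, the shared α subunit, followed *Prl* and *Gh* in the POA and less clearly in the PH. In the POA its signal was 24.4, 63.1, 23.5, 24.4 and 23.6 in intact mice, 208, 67.6, 31.3, 290, 137 and 40.5 at 14 days, and 24.3, 22.7, 25.5, 22.5, 35.1 and 22.5 at 4 months. Its highest libraries were replicates 4, 1 and 5 at 14 days, which were also the highest for *Prl* and *Gh*, and 5 of 6 libraries at 14 days were above all 6 at 4 months. In the PH it ranged from 25.9 to 58.4 in intact mice, from 21.0 to 69.7 at 14 days and from 19.4 to 69.8 at 4 months, so these groups overlapped throughout. With limma, its POA difference was 1.72 ± 0.52 at 14 days versus intact (unadjusted *P* = 0.00523, adjusted *P* = 0.757) and -1.91 ± 0.49 at 4 months versus 14 days (unadjusted *P* = 0.00164, adjusted *P* = 0.661). In the PH it was 0.09 ± 0.37 at 14 days versus intact. Across libraries, r of *Cga* with *Prl* was 0.947 in the POA (n = 17) and 0.449 in the PH (n = 16).

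The gonadotropin β subunits were low. *Fshb* was present in 3 libraries, all in the POA at 14 days, where it was 68.3, 33.6, 23.0, 97.1, 47.5 and 30.7, against 22.6 to 23.3 in intact mice and 22.2 to 23.4 at 4 months. Its 3 present libraries were again replicates 1, 4 and 5. In the PH it stayed between 21.1 and 38.8 and was present in none. *Lhb* entry 1, the lower of the 2 entries, was present in 2 libraries, replicates 4 and 5 of the POA at 14 days, at 64.2 and 47.2, and lay between 21.7 and 41.3 in the others.

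*Lhb* entry 2 behaved differently. It was present in all 33 libraries, between 67.0 and 132 in the PH and between 76.4 and 170 in the POA, and its group means lay within 0.11 log2 units of each other in every comparison. Its r with *Prl* was -0.128 across PH libraries and -0.148 across POA libraries. The gene most like it by r over the libraries of a region was *Maf* in the PH (0.834) and *Gm1110* in the POA (0.875). *Krt18*, an epithelial keratin, had rank 2 in the PH (0.822) and rank 3 in the POA (0.850). *Ttr*, the choroid plexus transthyretin, was looked up and ranked lower, at 234 in the PH (r of 0.634) and 92 in the POA (0.675). In GENCODE M39 (GRCm39) both *Lhb* genes lie on chromosome 7 (45067746 to 45071321 and 45070244 to 45071321, plus strand) and overlap *Ruvbl2* on the opposite strand. Of the exonic bases of the longer gene, 24.2% (622 of 2575) are also exonic in *Ruvbl2*, of the shorter 78.2% (530 of 678), and all 678 bases of the shorter gene are part of the longer. The table does not say which entry is which gene, and strand use in the counting is not given in the sources used here, so both *Lhb* values are uncertain. r of entry 2 with *Ruvbl2* was -0.279 in the PH and 0.187 in the POA.

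*Tshb*, the thyrotropin β subunit, was also present in all 33 libraries. In the PH its signal was 154, 123, 138 and 214 in intact mice, from 120 to 229 with a median of 156 at 14 days, and from 96.9 to 198 with a median of 118 at 4 months. In the POA it was 129, 149, 91.1, 122 and 118 in intact mice, from 141 to 196 with a median of 177 at 14 days, and from 100 to 259 with a median of 125 at 4 months. Libraries without measurable *Prl* or *Gh* thus still carried *Tshb* at 4 or more times the floor. At 14 days versus intact in the POA, 5 of 6 libraries were above all 5 intact ones, and limma gave 0.47 ± 0.17 (unadjusted *P* = 0.0145, adjusted *P* = 0.799). *Tshb* (chromosome 3, 102682781 to 102690034, minus strand) overlaps *Tspan2* on the opposite strand and shares 0 of its 4555 exonic bases with it. The signal of *Tspan2* was 6291 to 11130, and its r with *Tshb* was 0.659 in the PH and 0.0827 in the POA.

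*Cga* and *Tshb*, which thyrotropes and the pars tuberalis make together, were correlated in the POA, but not under every setting. Over 16 PH libraries r was 0.213 (rho 0.182, adjusted permutation *P* = 0.43 and 0.5). Over 17 POA libraries r was 0.574 (rho 0.593, adjusted permutation *P* = 0.0215 and 0.0185). After centring on the group means it was 0.357 (adjusted permutation *P* = 0.212), and without the 2 libraries farthest from the median of *Cga* 0.412 (adjusted permutation *P* = 0.17), so the call was lost in both. Within batches it was 0.291 in batch 1 (adjusted exact permutation *P* = 0.647, n = 8) and 0.881 in batch 2 (adjusted exact permutation *P* = 0.00146, n = 9).

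The transcription factor genes lay near the floor. *Pou1f1* was present in 2 libraries, replicates 1 and 4 of the POA at 14 days, at 47.6 and 46.0, and its POA values were 28.8 to 47.6 at 14 days, 22.0 to 42.8 in intact mice and 22.0 to 35.7 at 4 months. *Pitx1* was present in 1 library, replicate 4 of the POA at 14 days, at 46.8, and otherwise lay between 22.0 and 40.1. Its highest values thus fell in the library with the highest *Gh*. In the POA, r with *Prl* was 0.852 for *Pou1f1* and 0.705 for *Pitx1*, and in the PH 0.274 and 0.519.

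**Figure D4:**
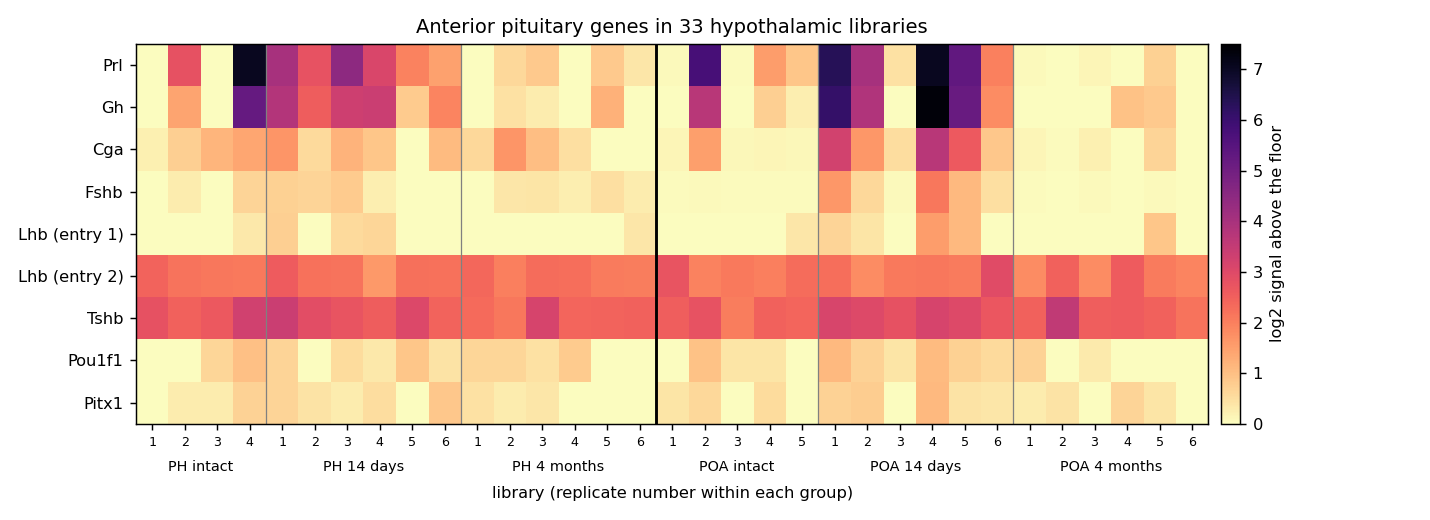
Signal of each of the 9 entries (rows) in each of the 33 libraries (columns, by replicate number within region and group) as log2 units above the floor, from pale (at the floor) to dark. *Prl*, *Gh*, *Cga* and *Fshb* darken in the same POA columns at 14 days (replicates 1, 4 and 5), while *Lhb* entry 2 and *Tshb* are of a like shade in all columns. *Lhb* entry 1 and *Pou1f1* are paler and less particular to these columns. *Lhb* entry 1 was 34.7 in replicate 1, against 41.3 in replicate 5 of the POA at 4 months. *Pou1f1* was 36.3 in replicate 5, against 43.6 in intact replicate 4 of the PH.

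Among the 7 entries other than *Tshb* and *Lhb* entry 2, the median r of the 21 pairs was 0.801 in the POA (0.419 to 0.981) and 0.464 in the PH (0.00692 to 0.953). For the 15 pairs that include *Tshb* or *Lhb* entry 2 it was 0.155 in the POA (-0.275 to 0.594) and 0.213 in the PH (-0.182 to 0.583). All these values share the same libraries and the same floor and are given as a description. For the nearest protein-coding genes beside *Prl* (*Hdgfl1*), *Gh* (*Tcam1*, *Cd79b*) and *Cga* (*Zfp292*, *Mob3b*), r with the member was -0.281 to 0.336 over both regions. Apart from *Tspan2*, the highest r of a neighbour was 0.603, for *Sycp1* beside *Tshb* in the PH, itself near the floor.

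The regions were compared in 1 limma fit of all 33 libraries with an interaction of region and group. It called 0 of 5 members at 14 days versus intact, where it called 0.00435% of 23014 genes, and 0 of 5 at 4 months versus intact (0.00869%). At an unadjusted *P* under 0.05 the members were 1 and 0, against 706 and 849 of the 23014 genes. That member was *Cga*, whose change at 14 days was 1.66 ± 0.65 log2 units smaller in the PH than in the POA (PH minus POA -1.66, unadjusted *P* = 0.017, adjusted *P* = 1). The corresponding difference was -1.91 ± 1.70 for *Prl* and -1.99 ± 1.45 for *Gh*, both with an adjusted *P* of 1 in limma.

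The gene most like the members in the POA was *Pomc*, which encodes the precursor of ACTH and the melanotropins and is expressed in pituitary corticotropes and melanotropes and in arcuate neurons. Of 23032 genes compared over the 17 POA libraries, it had the highest r with 5 members, at 0.871 for *Prl*, 0.900 for *Gh*, 0.931 for *Cga*, 0.891 for *Fshb* and 0.795 for *Pou1f1*. Its POA signal was 166, 350, 198, 248 and 124 in intact mice, 6985, 810, 200, 1691, 1325 and 365 at 14 days, and 140, 141, 266, 111, 279 and 104 at 4 months. The same replicates 1, 4 and 5 were highest and replicate 3 was lowest at 14 days. With limma, *Pomc* differed by 2.26 ± 0.74 at 14 days versus intact in the POA (unadjusted *P* = 0.00887, adjusted *P* = 0.799). In the PH it ranged from 190 to 725, and its r with *Prl* was 0.0429. The other 4 arcuate genes looked up, *Agrp*, *Npy*, *Kiss1* and *Ghrh*, had r with *Prl* between -0.118 and 0.0358 in the POA, so *Pomc* alone of that list moved with the members there. The other genes looked up for melanotropes and corticotropes also had lower r with *Prl* in the POA. It was 0.0151 for *Pcsk1*, 0.149 for *Pcsk2*, 0.316 for *Pax7* and 0.403 for *Tbx19*.

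In the PH, the gene most like *Cga* over 16 libraries, of 23600 compared, was *Mtnr1a*, a melatonin receptor of the pars tuberalis, with r of 0.811. It was also the second most like *Pitx1*, at 0.764. Its PH signal was low, from 36.2 to 63.6, and its r with *Prl* was 0.203 there. In the POA its r with *Cga* was 0.14. With *Tshb*, r of *Mtnr1a* was -0.0252 in the PH. The other pars tuberalis gene looked up, *Eya3*, had r of -0.312 with *Cga* and 0.0746 with *Prl* in the PH. The genes most like *Prl* and *Gh* in the PH reached r of at most 0.751 and 0.793 (*9230111E07Rik* for both).

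**Figure D5:**
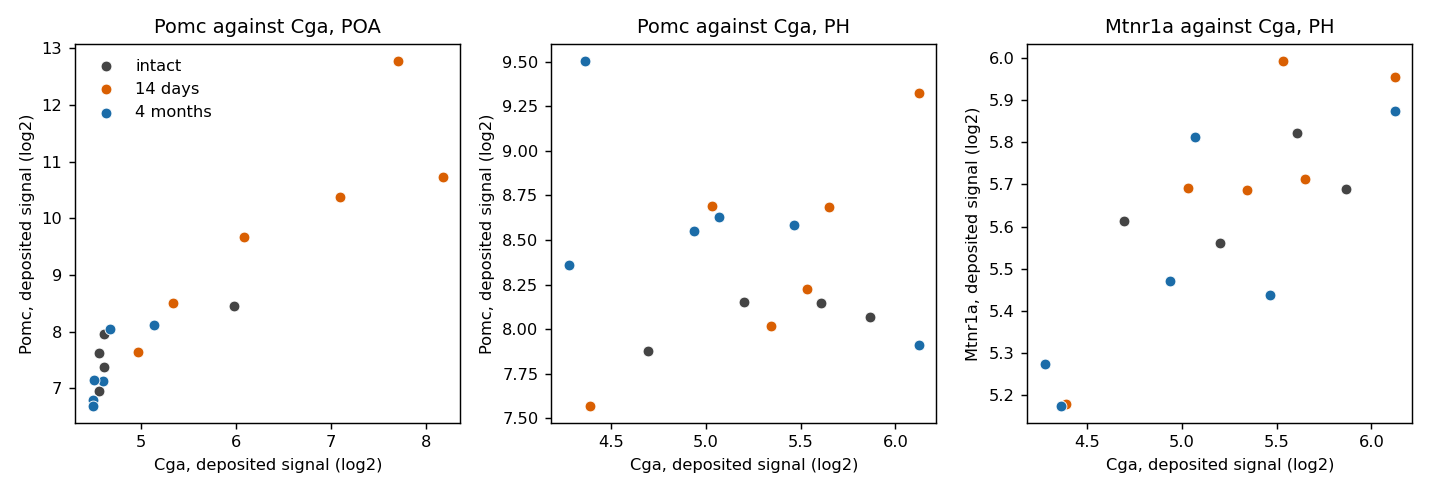
Deposited signal (log2) of *Pomc* against *Cga* in the POA (left) and the PH (middle) and of *Mtnr1a* against *Cga* in the PH (right), 1 point a library, colored by group. *Pomc* follows *Cga* in the POA (r = 0.931) with the 14-day libraries at the top but not in the PH (r = 0.0158), where *Mtnr1a* does (r = 0.811).

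Other genes of the anterior pituitary were looked up beside the members. Of 13 lineage factors and receptors of releasing hormones, 5 were present in every PH library and 3 in every POA library, and 3 and 4 were present in none. Their summed signal in the POA was 1444 to 1718 in intact mice, 1369 to 1702 at 14 days and 1224 to 1610 at 4 months, with r of 0.0847 with *Prl*. The highest gene of the list was *Trhr* (299 to 1064 in the POA), which encodes a receptor for thyrotropin-releasing hormone and is also expressed by neurons. Of the single genes, *Ghrhr*, the somatotrope receptor for growth hormone-releasing hormone, had the highest r with *Prl* in the POA, at 0.592. *Gnrhr*, the gonadotrope receptor for GnRH, was next, at 0.505. Over the 13 genes, r in the POA ran from -0.25 to 0.592 with a median of 0.0969, and *Trhr* had -0.0143. In the PH, r with *Prl* was 0.296 for *Ghrhr* and -0.134 for *Gnrhr*. *Ghrhr* was near the floor in most libraries. It was highest in replicates 4, 1 and 5 of the POA at 14 days, at 40.8, 36.5 and 34.2, without reaching 2 times the floor. *Gnrhr* in the POA was instead highest in replicate 6 at 14 days, at 40.39, followed by replicate 1 at 36.89. Replicates 4 and 5 at 14 days, at 30.99 and 29.64, were below replicate 1 at 4 months, at 31.95. *Hesx1*, which acts in the developing pituitary, was present in 0 libraries of either region.

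For the choroid plexus, thalamic, tanycyte, epithelial and red cell lists, r of the summed signal with *Prl* lay between -0.383 and 0.0928. Lists of hypothalamic regions reached higher values. In the PH and the POA, r was 0.0779 and 0.27 for the mammillary and posterior hypothalamic list and 0.186 and -0.0348 for the preoptic list. For the arcuate list, which includes *Pomc*, it was 0.00666 and 0.795. Choroid plexus genes (5) had r of -0.0265 with *Prl* in the PH and -0.0493 in the POA, thalamic genes (4) -0.00854 and 0.0595, tanycyte genes (5) 0.0928 and -0.0936, and epithelial genes (4) -0.132 and 0.0736. The sum hides 1 epithelial gene, *Epcam*, with r of 0.489 in the POA and -0.136 in the PH. In the POA *Cdh1*, *Krt8* and *Krt18* had -0.0615, -0.0284 and 0.141. The highest *Epcam* values were in replicates 4 and 5 of the POA at 14 days (76.1 and 69.6), against 32.8 to 64.9 in the other POA libraries. Red cell genes (4) had -0.383 and -0.15. Of the neuron and glia lists, the highest r in absolute size were those of microglia (-0.477) and astrocytes (0.374), both in the PH, against 0.0562 and 0.0486 in the POA. Of all these lists, 1 gene was called, the erythroid enzyme gene *Alas2*, higher at 4 months versus intact in the PH. The red cell list (*Hbb-bs*, *Hba-a1*, *Hba-a2* and *Alas2*) had its highest median sum at 4 months in both regions, where *Prl* and *Gh* had their lowest means. Its summed signal in the PH was 6036 to 7915 in intact mice, 6562 to 13801 at 14 days and 11374 to 34581 at 4 months, and in the POA 6635 to 15401, 8563 to 16105 and 8880 to 21024. The median difference of the 4 genes was 1.4 log2 units at 4 months versus intact and 0.79 at 4 months versus 14 days in the PH, each with 4 of 4 genes at an unadjusted *P* under 0.05 in limma. In the POA it was 0.80 (4 of 4) and 0.33 (1 of 4). The part of red cells in the members' values was not tested. In bulk tissue, more cells of a type and more RNA per cell cannot be told apart. Whether pituitary tissue attached to the dissected hypothalamus contributed to the values above was not tested.

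The hypothalamic factors that act on these hormones were called in no comparison, as was true of the members. *Ghrh*, *Sst*, *Trh*, *Crh*, *Gnrh1* and *Th*, which makes the prolactin inhibitor dopamine, were all present in all 33 libraries. Of the 6, limma called 0 in each of the 6 comparisons. Their median difference ran from -0.10 to 0.08 log2 units over these comparisons, while the median over all genes tested ran from -0.01 to -0.00177. The unadjusted *P* was under 0.05 for *Ghrh* alone, at 4 months versus intact in the POA (-0.39 ± 0.14 in limma, adjusted *P* = 0.383). Of the hormones' receptors, *Prlr*, *Ghr*, *Lhcgr* and *Tshr* were present in all 33 libraries and *Fshr* in none. Of the 4 tested, 0 were called in any comparison. The unadjusted *P* was under 0.05 for *Lhcgr*, the luteinizing hormone receptor, in 3 of them. In limma it differed by 0.33 ± 0.15 at 14 days versus intact in the PH (unadjusted *P* = 0.0413, adjusted *P* = 1), by 0.39 ± 0.15 at 4 months versus intact in the PH (0.0146 and 0.68) and by -0.46 ± 0.19 at 4 months versus 14 days in the POA (0.027 and 0.964).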

How the data were processed

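The authors sequenced poly(A) RNA of flash-frozen PH and POA as stranded libraries, pseudoaligned the reads with kallisto to mm39, summarized them with tximport and used DESeq2 with a surrogate variable. The deposited table holds a normalized expression signal. The step that made it from the counts is not given in the sources used here. The 1259 entries without a name were left out, and log2 was taken without a pseudocount. Genes that reached 2 times the floor in 4 (PH) or 5 (POA) libraries were fitted with limma 3.58.1 (R 4.3.3, trend and robust) on group and SV1, re-estimated here, with Benjamini-Hochberg adjustment over all genes and calls at 0.05. The counts from which the study tested were not used here, so a count model was not fitted. Correlations were tested by permutation in Python 3.11.15 (scipy 1.17.1). Positions are from GENCODE M39. The fits were tested on simulated data.

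All members are named in every comparison. For each, the 5 genes with the highest r were taken from genes that 2 or more libraries of a region had at 2 times the floor. Genes of the lists are named when called, when highest or lowest, or when they check a member. *Ghrhr*, *Gnrhr*, *Epcam* and the arcuate genes were singled out after their values were seen. The members and lists were chosen with earlier results of these data known. Nothing in the labels says more about how separate the mice of a group were, so *P* values measure the spread between these libraries.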

Additional observations from a re-analysis of the deposited data

Results flagged for a closer look

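Each entry was examined in each group for a highest or lowest library far from the rest (Dixon's ratio of gap to range, groups of 4 to 6). Of 54 groups of values, 12 had such a library. The critical values assume normal values, for which about 1 group in 20 is flagged. Many of these groups lie at the floor with little spread, so 12 cannot be read against that rate. The groups are also not independent, because the entries share libraries.

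In the POA of intact mice, replicate 2 stood apart for *Prl* (1214, next 64.4), *Gh* (290, next 37.2) and *Cga* (63.1, next 24.4). In the POA at 4 months, replicate 5 stood apart for *Prl* (36.5, next 24.0), *Cga* (35.1, next 25.5) and *Lhb* entry 1 (41.3, next 22.0), all below 2 times the floor.

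In the PH at 4 months, replicate 5 stood apart for *Gh* (51.2, next 30.2). *Lhb* entry 1 stood apart near the floor in intact replicate 4 of the PH (28.0, next 22.3), replicate 6 of the PH at 4 months (28.6, next 22.3) and intact replicate 5 of the POA (28.6, next 21.9). *Tshb* was high in replicate 3 of the PH at 4 months (198, next 123) and in replicate 2 of the POA at 4 months (259, next 134). In the latter library *Prl* was 22.4 and *Gh* 22.0, both at the floor.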

How the results depend on the processing

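The count of members called was 0 in each of the 6 comparisons under 10 alternatives and in both comparisons between regions under 3, and with each of the libraries left out (165 further fits). The smallest adjusted *P* of a member over all of these was 0.115, for the PH at 4 months versus 14 days without intact replicate 4. The correlation of *Prl* and *Gh* passed the test under every alternative, at 0.930 to 0.963 in the PH and 0.965 to 0.988 in the POA with single libraries left out. The correlation of *Cga* and *Tshb* in the POA was 0.509 to 0.859 with single libraries left out, but failed the test after centring on group means (0.357), in batch 1 alone (0.291) and without the 2 libraries farthest from the median (0.412). In the PH it was 0.0171 to 0.455 and never passed. Of 756 alternative values of the members' mean differences, 53 had the other sign and 1 moved by more than the pooled SD, *Pou1f1* at 4 months versus 14 days in the POA with 32 added before the log. Replicate numbers were not treated as pairs, and the fit with the replicate block called 0 members. After centring on group means, same-numbered libraries of different groups had a median correlation of 0.154 (PH) and 0.255 (POA). Differently numbered ones had -0.0508 and -0.155. The ranges overlapped, at -0.181 to 0.391 against -0.550 to 0.452 in the PH and -0.308 to 0.390 against -0.408 to 0.426 in the POA. The replicate numbers mostly followed the batches. Of 36 counts of libraries with a member present at 1.5 or 4 times the floor, 14 moved by more than 1.5 times. At 1.5 times the floor, *Fshb* reached 4 PH libraries (0 at 2 times), *Pou1f1* 7 PH and 6 POA libraries (0 and 2) and *Pitx1* 3 and 5 (0 and 1). The ratio of *Prl* to *Gh* at other thresholds was added after the values were seen.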

Other observations

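The library names carry running numbers whose meaning the labels do not give. In batch 2 the *Prl* signal of the PH in their order was 20.9 (1), 2919 (2), 189 (4), 85.2 (5), 61.0 (6), 20.6 (7), 39.6 (8) and 28.7 (9). In the POA it was 22.9 (10), 64.4 (11), 40.8 (12), 2920 (13), 857 (14), 87.7 (15), 22.3 (16), 36.5 (17) and 22.3 (18). In each region the values fell from the highest library over the numbers that follow it, from 2 to 7 and from 13 to 16. *Gh* fell in the same order in the POA, at 3634, 798, 77.1 and 42.6, and not strictly in the PH, at 832, 229, 38.3, 83.5 and 22.3. In batch 1 the POA had such a run too, with *Prl* at 23.4, 1214, 1777, 359, 30.3, 23.3, 22.4 and 24.0 and *Gh* falling from 1513 over 317 to 21.8. In the PH of batch 1 it was not seen, with *Prl* at 21.1, 155, 356, 151, 488, 20.9, 33.5 and 39.1. The numbers also follow the groups, so the order and the group cannot be told apart.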
